A study of Mus musculus with 2 samples.

Results

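The 53 genes described here code for the translation initiation factors of the mouse and for proteins that regulate them. They were chosen by symbol from the annotation: Eif followed by a number from 1 to 6, no pseudogene suffix, and at least 1 transcript annotated as protein_coding. The symbols left 53 of 55536 genes in the gene table, or 53 of the 21901 genes with a protein_coding transcript. The genes of the gamma subunit of eIF2 lie outside it and were not analysed here.

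Total RNA of the gastrocnemius, a large calf muscle, came from 2 female B6CASTF1/J mice aged 2 months, with no treatment named in the labels. B6CASTF1/J mice are the first-generation cross of a B6 and a CAST parent. The libraries, called animal 1 and animal 2 after the replicate numbers of the labels, were each made from 300 ng of RNA and form 1 group, so no contrast of conditions exists and no p-value was computed. The labels also give both libraries 1 donor record, and if they did not come from separate mice, the spread below may be technical. Whole pieces of muscle were measured, and more cells of a type cannot be told apart from more RNA per cell.

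Animal 1 had 45014831 reads on genes and animal 2 had 47771308. Markers fitted the tissue label: all 10 listed fast fibre genes were detected, with 76516 TPM, a transcript abundance scaled for length and depth, in sum in animal 1 and 72989 TPM in animal 2. The animals were not alike in their other tissue markers. Adipocyte markers summed to 802 TPM in animal 1 against 108 TPM in animal 2, Schwann cell markers to 254 and 34.5 TPM, and slow fibre markers to 578 and 3098 TPM.

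Initiation is the step at which a ribosome finds the start codon of an mRNA. The complex eIF4F binds the cap at the 5′ end of the mRNA through eIF4E, holds it on the scaffold eIF4G and unwinds it with the helicase eIF4A. A small ribosomal subunit that carries eIF1, eIF1A, eIF3 and the initiator tRNA on eIF2 then scans to the start codon. In muscle, as in other tissues, the mTORC1 pathway controls the first event through the 4E-binding proteins, and kinases that phosphorylate the alpha subunit of eIF2 control the delivery of the initiator tRNA.

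Of the 53 genes, 50 reached 1 TPM in both animals, where 46.7% of all genes with a protein_coding transcript reached that level. The exceptions were Eif4e1b, Eif4ebp3 and Eif5a2. In both animals 42 genes were at 10 TPM or more, and 5 were at 100 TPM or more: Eif1, Eif4g2, Eif4a2, Eif4g1 and Eif5a. The median of the 53 was 22.2 TPM, against 7.76 TPM over protein-coding genes at 1 TPM or more. Ranked among genes with a protein_coding transcript, 27 of the 53 fell in the top 10%. In sum they held 2628 TPM in animal 1 against 2536 TPM in animal 2, or 0.26 ± 0.0068% of the TPM of all genes (SD, n = 2).

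**Figure D1:**
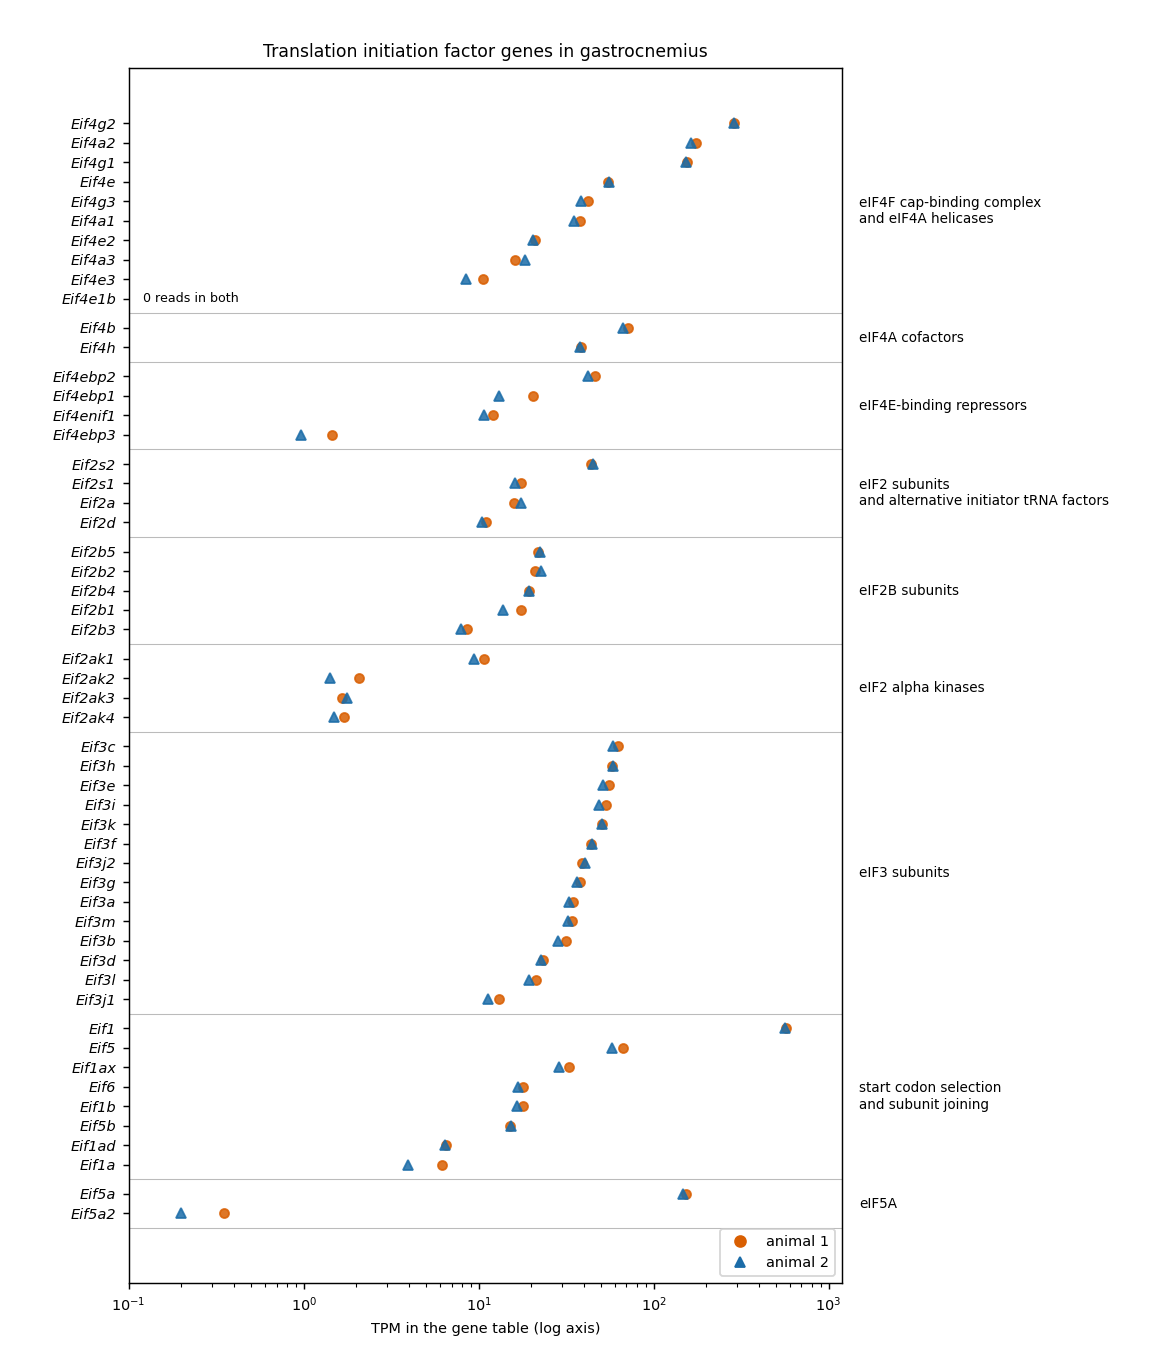
Level of each initiation factor gene in TPM (log axis), with animal 1 as circles and animal 2 as triangles, ordered by mean level within each role. Levels ran from 569 TPM for Eif1 in animal 1 to 0.20 TPM for Eif5a2 in animal 2, and Eif4e1b had 0 reads in both animals.

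The cap-binding complex and the eIF4A helicases made up the largest of the 9 role groups by summed level, at 798 TPM in animal 1 against 782 TPM in animal 2. Eif4g2 led it at 286 and 287 TPM in animals 1 and 2. Eif4g2 codes for a scaffold, also known as DAP5, that lacks the part of eIF4G that binds eIF4E. Eif4g3, a close relative of Eif4g1, stood at 42.2 and 38.7 TPM, and Eif4g1, the canonical scaffold gene, at 155 and 153 TPM. In both animals Eif4g2 was highest and Eif4g3 lowest of these 3. Eif4g2 over Eif4g1 gave a log2 ratio of 0.90 ± 0.01 (SD, n = 2), a 1.86-fold excess, and Eif4g3 over Eif4g1 gave -1.93 ± 0.08. A ratio within a pair was called apart where its mean was more than 2 SD from 0 with the same sign in both animals. With 2 values no exact two-sided test can go below p = 0.5, so the rule describes the spread and is no test.

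Eif4g2 also stood out in sequence, because its longest complete coding stretch is annotated to open with GTG. Of the longest complete coding stretches of the 53 genes, 51 opened with ATG and 2 with GTG, the other being that of Eif4g3-215. For the scaffold genes the stretches were those of Eif4g2-213, Eif4g3-215 and Eif4g1-201. None of these was the transcript of highest TPM of its gene, and the starts of those transcripts were not examined. The first 30 coding bases are shown for the 3 scaffold genes and for Eif1, with the start codon in capitals.
Eif4g2: GTGgagagtgcgattgcagaagggggtgct
Eif4g3: GTGaagaaaatccgtccgcatcgcccgagc
Eif4g1: ATGaacaaagctccccagcccacaggcccc
Eif1: ATGtccgctatccagaacctccactctttc

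The helicase pair differed in the same way in both animals. Eif4a2 had 174 TPM in animal 1 against 164 TPM in animal 2, while Eif4a1 had 38.2 and 35.3 TPM. Both animals therefore had far more RNA of Eif4a2 than of Eif4a1. The log2 ratio of Eif4a2 over Eif4a1 was 2.20 ± 0.02, or 4.59-fold. Both proteins unwind RNA ahead of the scanning ribosome. The size of this ratio rested on how reads were assigned. Counting protein_coding transcripts alone gave 2.35-fold, adding the reads of the pseudogene Eif4a-ps4 to Eif4a1 gave 3.68-fold, and the second transcript table gave 2.66-fold over all transcripts and 12.7-fold over protein_coding ones. Eif4a2 was above Eif4a1 in each of these. All but the second table over all transcripts were chosen after values were seen.

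The coding stretches of the helicases were 78.2% identical over 1218 aligned bases, and their longest unbroken match was 20 bases. The first 60 coding bases that aligned without a gap are shown for this and 3 more pairs. Each base that differs between the partners is in capitals. Such bases, here and in the rest of the transcripts, separate the reads of one partner from those of the other. The sequences are those of the GENCODE M21 transcripts.
Eif4a2: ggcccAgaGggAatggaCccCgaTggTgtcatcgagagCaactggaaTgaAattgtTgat
Eif4a1: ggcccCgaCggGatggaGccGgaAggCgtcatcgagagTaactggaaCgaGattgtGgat
Eif1: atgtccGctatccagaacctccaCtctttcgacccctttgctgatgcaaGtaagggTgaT
Eif1b: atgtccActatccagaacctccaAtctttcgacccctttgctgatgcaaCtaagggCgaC
Eif5a: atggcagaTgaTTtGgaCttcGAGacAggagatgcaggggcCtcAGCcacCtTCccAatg
Eif5a2: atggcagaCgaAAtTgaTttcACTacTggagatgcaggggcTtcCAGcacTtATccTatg
Eif4ebp1: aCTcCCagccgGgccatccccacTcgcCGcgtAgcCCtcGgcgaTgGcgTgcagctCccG
Eif4ebp2: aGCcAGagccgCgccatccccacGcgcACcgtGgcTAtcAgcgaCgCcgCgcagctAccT

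These stretches differed at 11 positions in the Eif4a pair, 5 in the Eif1 pair, 17 in the Eif5a pair and 17 in the Eif4ebp pair. Reads of one gene can nevertheless fit another where longer stretches match. Of the 53 genes, 27 had no run of 100 bases in common with any transcript of another gene, in 18 less than 10% of the distinct 100-base runs recurred in another gene, and in 8 it was 10% or more. Eif4a1 was among the 8, with 22.6%, mostly in common with Eif4a-ps4, a pseudogene listed at 16.3 TPM in animal 1 against 9.05 TPM in animal 2. The posterior SD of the count, the deposited measure of this doubt, was under 1% of the count for 48 genes and 3.10% and 2.88% for Eif4a1 in animals 1 and 2.

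The 4 cap-binding genes covered a wide range. Eif4e2, which codes for the repressive cap-binding protein 4EHP, had 20.9 TPM in animal 1 against 20.4 TPM in animal 2. Eif4e3, another cap-binding relative, had 10.6 and 8.43 TPM, and Eif4e, whose protein binds the cap in eIF4F, had 54.7 and 55.9 TPM. Eif4e2 and Eif4e3 stood below Eif4e in both animals, with log2 ratios over Eif4e of -1.42 ± 0.04 and -2.54 ± 0.25. Eif4e1b, a relative known from oocytes, had 0 reads in both libraries. A count of 3, the limit that a count of 0 allows, would have been 0.0912 TPM in animal 1 against 0.0857 TPM in animal 2. The second transcript table gave Eif4e1b 0.11 and 0.23 TPM.

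The third helicase, Eif4a3, works in the exon junction complex and not in eIF4F, and had 16.2 TPM in animal 1 against 18.5 TPM in animal 2. It did not stand apart from Eif4e2 in the order of levels. The cofactors of eIF4A were Eif4b, with 71.2 and 67.1 TPM, and Eif4h, with 38.7 and 37.8 TPM. Eif4b exceeded Eif4h in both animals, by a log2 ratio of 0.85 ± 0.04.

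Repressors that compete with eIF4G for eIF4E were led by Eif4ebp2. Eif4ebp1 had 20.6 TPM in animal 1 against 13.0 TPM in animal 2, Eif4ebp2 had 46.3 and 42.0 TPM, and Eif4ebp3 had 1.45 and 0.96 TPM. Eif4ebp2 was highest and Eif4ebp3 lowest of these 3 in both animals. The log2 ratio of Eif4ebp1 over Eif4ebp2 was -1.42 ± 0.36, and -0.76 ± 0.36 in the second table, and over Eif4ebp3 it was 3.68 ± 0.08.

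Eif4enif1, whose product 4E-T binds eIF4E and takes it into the nucleus and into processing bodies, had 12.1 TPM in animal 1 against 10.7 TPM in animal 2 and did not stand apart from Eif4ebp1. By TPM, most of the RNA given to Eif4ebp1 was not of its coding transcript, while by expected counts that transcript held 49.9% on average. Eif4ebp1-202, annotated as a processed transcript without a coding stretch, held 72.6% of the gene's TPM in animal 1 and 73.7% in animal 2, and 82.0% on average in the second table. Counted by protein_coding transcripts, Eif4ebp1 had 5.65 TPM in animal 1 against 3.42 TPM in animal 2, and its log2 ratio over Eif4ebp2 was -3.30 ± 0.40. Over Eif4ebp3 the coding ratio was 1.81 ± 0.11 in the first table and 0.48 ± 0.47 in the second, where the pair was not apart. Eif4ebp3 was also the member with the least certain count. Its single annotated transcript had 62.8% of its 100-base runs in common with AC115631.1, a gene model that overlaps it, and its posterior SD was 23.6% of the count in animal 1 and 33.2% in animal 2.

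**Figure D2:**
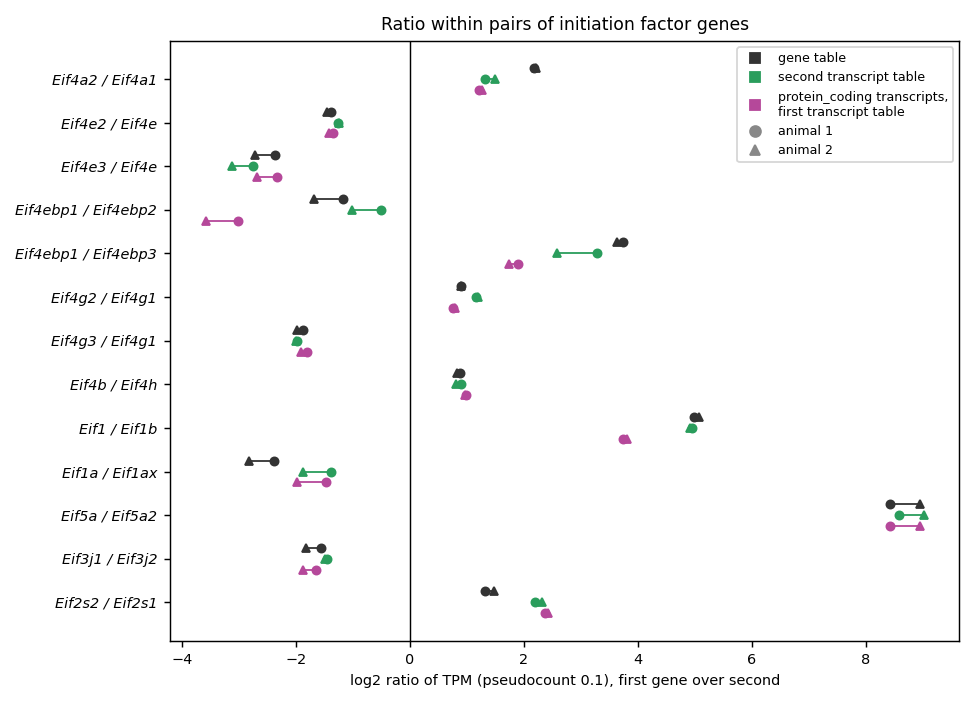
Log2 ratio of TPM between the genes of 13 pairs, first gene over second, with a pseudocount of 0.1 TPM. Black points are the gene table, green points the second transcript table and purple points protein_coding transcripts alone; circles are animal 1 and triangles animal 2. Every pair kept its sign in the 3 ways of counting, while 6 pairs moved most when protein_coding transcripts alone were counted: Eif4a2 over Eif4a1, Eif4ebp1 over Eif4ebp2, Eif4ebp1 over Eif4ebp3, Eif1 over Eif1b, Eif1a over Eif1ax and Eif2s2 over Eif2s1.

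The 4 genes of the factors that deliver the initiator tRNA, without the gamma subunit, summed to 88.6 TPM in animal 1 against 89.05 TPM in animal 2. This was below the sum of the 10 genes of the cap-binding complex and helicases, while gene by gene the groups overlapped. Eif2s2, the beta subunit of eIF2, had 44.0 TPM in animal 1 against 44.9 TPM in animal 2, and Eif2s1, the alpha subunit that the kinases phosphorylate, had 17.6 and 16.1 TPM. The 2 subunits sit in 1 complex, yet the RNA of the beta subunit was higher in both animals, by a log2 ratio of 1.40 ± 0.11. The second table gave 2.25 ± 0.08. In the first table Eif2s1-203, a processed transcript, held 51.5% and 47.4% of Eif2s1, against 1.51% on average in the second table, where the coding Eif2s1-201 held 96.6%. Eif2a and Eif2d, which can bring initiator tRNA to ribosomes without eIF2, had 16.03 and 17.55 TPM and 10.98 and 10.46 TPM in animals 1 and 2. Eif2a was not apart from Eif2s1.

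The 5 subunit genes of eIF2B, the factor that reloads eIF2 with GTP, lay close to each other. Eif2b5, the catalytic epsilon subunit, had the highest mean, with 21.8 TPM in animal 1 against 22.5 TPM in animal 2, where Eif2b2 was slightly higher. Eif2b3, the gamma subunit, was lowest at 8.53 and 7.96 TPM. The highest mean was 2.69-fold above the lowest. In the order Eif2b5, Eif2b2, Eif2b4, Eif2b1 no gene was apart from the next, while Eif2b1 was apart from Eif2b3, by a log2 ratio of 0.91 ± 0.17. Eif2b1 had 17.6 and 13.8 TPM, Eif2b2 20.9 and 22.6 TPM, and Eif2b4 19.5 and 19.3 TPM. In the second table Eif2b1 was highest, with a mean of 44.6 TPM, and Eif2b5 had 28.1 TPM.

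Of the 4 kinases of eIF2 alpha, Eif2ak1 stood above the rest. Eif2ak1, the kinase known as HRI that responds to heme shortage, had 10.7 TPM in animal 1 against 9.38 TPM in animal 2. The kinase of double-stranded RNA, Eif2ak2 (PKR), had 2.06 and 1.42 TPM. Eif2ak3 (PERK), which senses stress of the endoplasmic reticulum, had 1.66 and 1.77 TPM, and Eif2ak4 (GCN2), which senses uncharged tRNA, had 1.71 and 1.49 TPM. These last 3 were not apart from each other. Eif2ak1 exceeded Eif2ak2, the next in order, by a log2 ratio of 2.48 ± 0.22.

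eIF3, the largest initiation factor, holds the scanning complex together. All 14 of its subunit genes were above 10 TPM in both animals, and they summed to 560 TPM in animal 1 against 537 TPM in animal 2. The group spanned 4.95-fold. Eif3c, a core subunit, had the highest mean, with 62.3 and 58.5 TPM in animals 1 and 2, though Eif3h was level with it in animal 2, and Eif3j1 was lowest at 13.2 and 11.3 TPM. Next after Eif3c came Eif3h with a mean of 58.1 TPM, Eif3e with 53.8, Eif3i with 51.3, Eif3k with 50.8 and Eif3f with 44.3 TPM. The remaining means were 39.6 TPM for Eif3j2, 37.3 for Eif3g, 33.8 for Eif3a, 33.4 for Eif3m, 30.2 for Eif3b, 23.0 for Eif3d and 20.3 for Eif3l. Neighbours that were not apart were Eif3c and Eif3h, Eif3h and Eif3e, Eif3i and Eif3k, and Eif3j2 and Eif3g.

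The pair of genes for the loosely bound j subunit cannot be separated well. Eif3j1 had 13.2 TPM in animal 1 against 11.3 TPM in animal 2, and Eif3j2 had 38.8 and 40.3 TPM. Eif3j1 was lower in both animals, with a log2 ratio over Eif3j2 of -1.69 ± 0.19. Their coding stretches were identical at each of 783 aligned bases, with an unbroken match of 781 bases. Of the 100-base runs, Eif3j2 had 84.0% in common with other genes and Eif3j1 44.2%, mostly with each other, and their posterior SDs were between 1.02% and 1.61% of their counts. Eif3d had 32.0% in common with the gene model Gm17638.

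Factors of start codon choice and subunit joining summed to 732 TPM in animal 1 against 707 TPM in animal 2, most of it from 1 gene. Eif1, whose protein guards the choice of the start codon, had 569 TPM in animal 1 against 562 TPM in animal 2 and was the highest of the 53, at rank 74 among genes with a protein_coding transcript. Its paralogue Eif1b had 17.9 and 16.7 TPM. Eif1 exceeded Eif1b by a log2 ratio of 5.03 ± 0.06, or 32.6-fold, and by 13.7-fold when only protein_coding transcripts were counted. Their coding stretches were 81.1% identical over 339 bases.

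Eif5, which makes eIF2 hydrolyse its GTP at the start codon, had 67.0 TPM in animal 1 against 57.5 TPM in animal 2. The genes of eIF1A, the partner of eIF1 in scanning, were Eif1a, with 6.16 and 3.94 TPM, and Eif1ax, with 32.7 and 28.6 TPM. Eif1a was the lower in both animals, with a log2 ratio over Eif1ax of -2.61 ± 0.31, and of -1.63 ± 0.35 in the second table. Eif6, which keeps the large subunit from joining early, had 18.03 and 16.76 TPM, and Eif5b, the GTPase of subunit joining, had 15.1 and 15.4 TPM. Eif1ad, which codes for a protein with an eIF1A domain, had 6.51 and 6.43 TPM and was not apart from Eif1a.

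The eIF5A pair gave the widest ratio. Eif5a, whose product carries the amino acid hypusine and is best known from elongation, had 154 TPM in animal 1 against 148 TPM in animal 2. Eif5a2 had 0.35 and 0.20 TPM, from 65 and 40 reads. Both animals made almost only RNA of Eif5a, and the log2 ratio of Eif5a over Eif5a2 was 8.69 ± 0.37, or 412-fold with a pseudocount of 0.1 TPM. The size was set in part by the pseudocount, with a log2 ratio of 6.90 ± 0.08 at 1 TPM and 9.10 ± 0.51 at 0.01 TPM. Their coding stretches were 73.2% identical over 459 aligned bases, and Eif5a2 had too few reads to enter the comparison between animals.

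In all, 13 of 13 pairs were apart in the gene table and 13 of 13 in the second table, with the same sign in both. The rule is easily met, and these counts say little. It also called Eif3a apart from Eif3m at a log2 ratio of 0.02, and Eif6 from Eif1b at 0.01. The share of pairs of other genes that meet it was not computed. The 53 genes lay on 19 chromosomes. Eif4a1 lies at chr11:69666936-69672423 on the minus strand and Eif5a at chr11:69916714-69921958 on the minus strand (mm10), 244 kb apart. Eif2b5 at chr16:20498817-20509323 and Eif4g1 at chr16:20668313-20692884, both on the plus strand, were 159 kb apart. The other 3 genes at 100 TPM or more were Eif1 at chr11:100319885-100322096 (plus strand), Eif4g2 at chr7:111067750-111083030 (minus strand) and Eif4a2 at chr16:23107444-23114136 (plus strand).

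Genes of the translation apparatus are known for a run of pyrimidines at the transcription start, the TOP motif, through which mTORC1 controls their translation. The RefSeq promoter table (GRCm38.p6) held 41 of the 53 genes. A run of 8 or more bases of C or T that touched the 5 bases on either side of the annotated start was found in 7 of the 41, or 17.1%, against 11.4% of 27025 genes in the table. The runs were sought on the strand of the gene only. A run could lie partly or wholly before the annotated start, so these are not counts of TOP motifs. The runs of Eif4e and Eif4enif1 ended before the start, and those of Eif2b5 and Eif3l lay mostly before it. That of Eif3f lay mostly from the start on, and those of Eif2ak4 and Eif2b2 wholly so. The longest were those of Eif2b5 with 21 bases and Eif3f with 15 bases. They are shown with that of Eif3l from 20 bases before the annotated start to 15 bases from the start on, with the run in capitals.
Eif2b5: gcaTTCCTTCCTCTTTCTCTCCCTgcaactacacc
Eif3f: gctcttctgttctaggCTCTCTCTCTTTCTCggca
Eif3l: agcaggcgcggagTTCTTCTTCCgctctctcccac

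Eif2b5 has this window at chr16:20498797-20498831, Eif3f at chr7:108934395-108934429 and Eif3l at chr15:79075203-79075237, all on the plus strand. The letters describe the annotated start, since the tables do not show where transcripts began in these animals.

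By TPM, transcripts of a class other than protein_coding led a few genes, among them the highest of all. Of the 51 genes with a mean of 1 TPM or more, 47 were led by a protein_coding transcript in the first transcript table, where 93.5% of all such genes were, and 49 in the second table, where 91.6% were. In 44 genes the leading transcript held over 50% of the gene. The tables named the same leading transcript in 38 of 51 genes, against 78.2% of all genes. The median percent of TPM on protein_coding transcripts was 95.7% for the initiation factor genes and 92.7% over all genes.

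The 4 genes led by another class in the first table were Eif1, Eif4a2, Eif2s1 and Eif4ebp1, all of them members of a pair. Eif1-202, a processed transcript, held 54.0% of Eif1 in animal 1 and 53.8% in animal 2, while the second table gave the lead to the coding Eif1-201 with 48.4%. Eif4a2-210, annotated as a target of nonsense-mediated decay, held 43.0% and 42.3% of Eif4a2. In the second table it held 8.92% and the coding Eif4a2-201 led with 37.2%. Counted by protein_coding transcripts, Eif1 had 239.7 and 236 TPM and Eif4a2 had 74.1 and 67.5 TPM in animals 1 and 2. By expected counts of the first table, protein_coding transcripts held on average 75.4% of Eif1, 90.1% of Eif2s1, 49.9% of Eif4ebp1 and 35.6% of Eif4a2.

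For Eif4a1 the tables differed the other way. The coding Eif4a1-213 held 83.8% of the gene in animal 1 and 79.7% in animal 2 in the first table, but 10.2% on average in the second, where the retained-intron transcript Eif4a1-212 led with 28.9%. A transcript with a retained intron keeps part of the unspliced sequence.

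Coding transcripts led the other high genes. Eif4g2-206 led with 52.6% and 53.2% in animals 1 and 2, Eif4b-201 with 88.6% and 87.5%, and Eif3c-201 with 76.0% and 77.8%, and the second table named the same transcripts. Eif4g1-203 led its gene with 30.6% and 33.5%, Eif5a-210 with 51.8% and 53.3%, and Eif5-212 with 24.1% and 27.6%. For these 3 genes the second table named another coding transcript, Eif4g1-202, Eif5a-213 and Eif5-202. The same held for Eif1a (Eif1a-202, and Eif1a-208 in the second table), Eif4e2 (Eif4e2-204 and Eif4e2-208) and Eif4h (Eif4h-201 and Eif4h-205). Eif3j1-201 held 93.9% and 96.9% of Eif3j1. The largest gap between animals was in Eif4a3, whose leading Eif4a3-201 held 76.4% in animal 1 and 52.6% in animal 2.

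**Figure D3:**
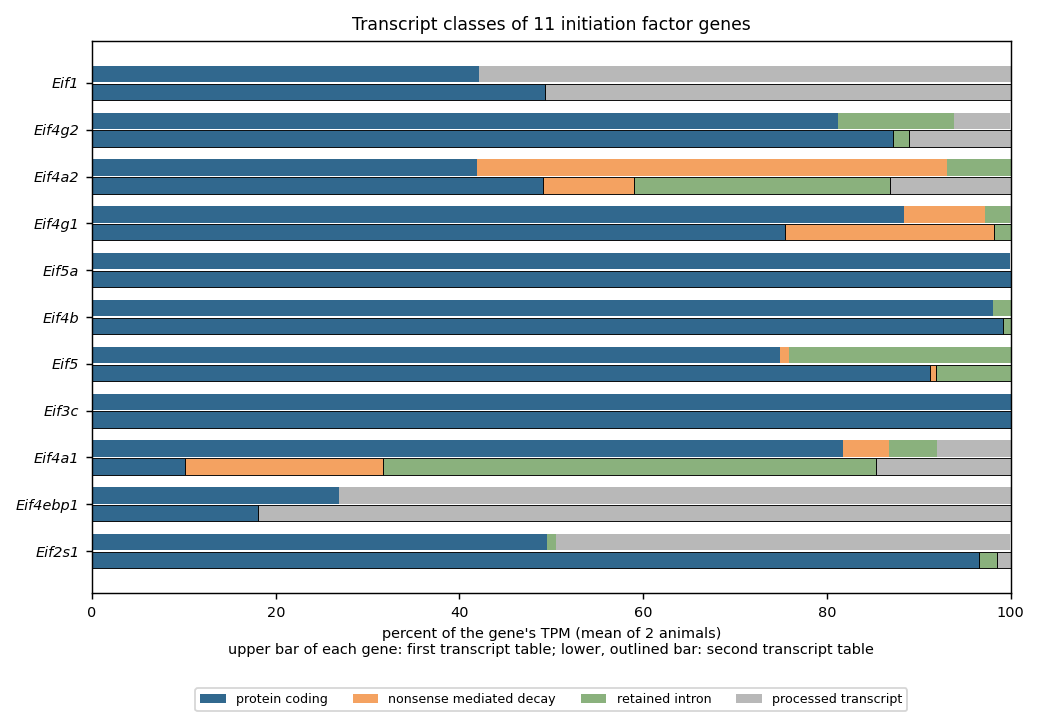
Percent of a gene's TPM on each class of transcript, as the mean of the 2 animals, for 11 initiation factor genes. The upper bar of each gene is the first transcript table and the lower, outlined bar the second; protein_coding transcripts held 41.9% of Eif4a2 and 81.8% of Eif4a1 in the first table.

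Relative to the median gene, the level of most initiation factor genes differed less than 2-fold between the tables. Before centring, the second table was 1.48-fold higher at the median gene with a protein_coding transcript and 1 TPM or more. After each table was centred on its median gene, 2 of the 51 genes that averaged at least 1 TPM were 2-fold or more apart between tables, Eif4a1 and Eif4ebp3, both higher in the second table, where 1.32% of all genes were that far apart and 0.699% were that much higher in the second. Their log2 ratios of second over first table were 1.08 and 1.11. Eif1ax, at -0.997, and Eif2b1, at 0.95, came next. The count was 3 without animal 2 and 0 without animal 1.

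Between the animals the initiation factor genes lay close together. Of the 50 initiation factor genes that averaged 100 reads or more over the libraries, none was 2-fold or more higher in animal 1, where 2.18% of 10872 genes were, and none was 2-fold or more higher in animal 2, where 0.791% were. Among 50 genes, finding none past 2-fold is near these shares and says little. The median log2 ratio of animal 1 over animal 2 was -0.05 with quartiles of -0.10 and 0.02, against -0.02 with quartiles of -0.15 and 0.13 over all genes tested. Within 0.25 on either side of 0 lay 46 of the 50, or 92.0%, against 71.7% of all genes tested and 81.1% of 3367 genes with counts between the quartiles of these 50. The ratio was above 0 in 18 genes and below 0 in 32. This split turned with the scaling, to 40 above and 10 below with library size alone, when the median of all genes was 0.09, and to 5 above and 45 below with spike-in scaling, when it was -0.22. Set against the median of all genes, the median of the 50 differed by -0.03 on the log2 scale under each of these 3 scalings. Within 0.25 of 0 lay 45 of the 50 with library size alone. With spike-in scaling it was 22, or 44.0%, against 47.5% of all genes. Within 0.25 of the median of all genes lay 46 under each of the 3. A change of scaling shifts every ratio by nearly the same amount. Values set against the median of all genes therefore cannot change with it, and their agreement is no check.

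**Figure D4:**
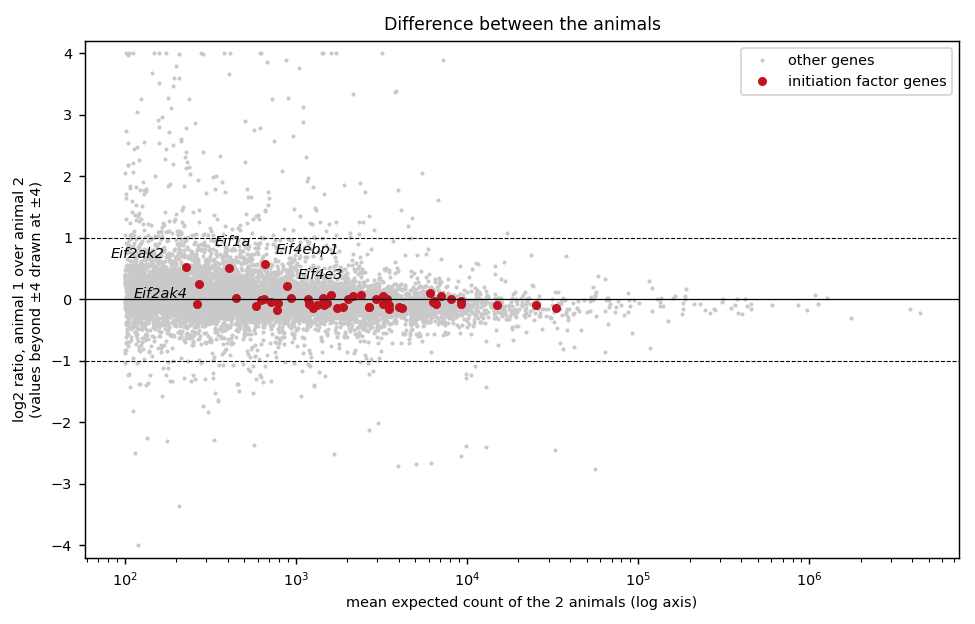
Log2 ratio of expected counts, animal 1 over animal 2, against the mean count (log axis), for 50 initiation factor genes (red) and all other genes that averaged at least 100 reads (grey). Dashed lines mark 2-fold; the red points lie between -0.17 and 0.56.

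The 3 genes furthest toward animal 1 were a repressor, a kinase and a scanning factor. Eif4ebp1 had 796 reads in animal 1 and 529 in animal 2, with a log2 ratio of 0.56 and an exact binomial 95% interval of 0.40 to 0.73. Eif2ak2 had 271 and 186 reads and a ratio of 0.52 (0.24 to 0.80), and Eif1a had 482 and 332 reads and a ratio of 0.51 (0.31 to 0.72). The intervals cover counting error only, and with 1 library per animal the differences have no replicate check. They stayed above 0 under each scaling run, from library size to spike-ins. Adipocyte markers moved the same way, with 8 of 10 at 1 TPM or more in both animals, none at 0 in either animal, and 9 of 10 at 2-fold or more higher in animal 1. Macrophage markers summed to 69.9 TPM in animal 1 against 44.4 TPM in animal 2. Schwann cell markers summed to 254 and 34.5 TPM, and slow fibre markers, higher in animal 2, to 578 and 3098 TPM. The part of any cell type in these 3 genes was not tested.

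Toward animal 2 the furthest genes were Eif2b2 at -0.17 (interval -0.32 to -0.02), Eif3j2 at -0.17 (-0.24 to -0.10) and Eif2a at -0.15 (-0.26 to -0.03). In the same order they were at -0.06, -0.06 and -0.04 with library size alone, and at -0.37, -0.37 and -0.34 with spike-in scaling. The intervals take the main scaling as given. The value of Eif3j2 was -0.06 in the second table, where Eif3j1 was at -0.08, against 0.07 in the gene table, and the intervals do not cover how reads were split between these near-identical genes. All were small beside a 2-fold change. By role, the 4 genes of the eIF2 group all had ratios below 0, from -0.15 to -0.06, but 2 of them were above 0 with library size alone. Of the 14 eIF3 genes, 10 were below 0, against 3 with library size alone and 14 with spike-in scaling. Of the 4 kinases, 3 were above 0, against 4 and 2 under those scalings.

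Partners of these factors are given by list. All 20 genes listed for the cap complex and mTORC1 signalling reached 1 TPM in both animals, with a median log2 ratio of -0.04 and none past 2-fold in either direction, where 2.18% and 0.791% of all genes were higher in animals 1 and 2. In lists this short so few calls say little. Single members lay further out in both directions, such as Pdcd4, an inhibitor of eIF4A, at 0.33, Pabpc1 at 0.25, Pabpc4 at -0.29 and, among the recycling genes, Bzw2 at -0.36; Pdcd4 and Pabpc1 were named after their values were seen. The highest were Rps6, a ribosomal protein phosphorylated downstream of mTORC1, at 178 TPM in animal 1 against 179.8 TPM in animal 2, Pabpc4, a poly(A)-binding protein, at 108 and 122 TPM, and Mknk2, a kinase of eIF4E, at 104 and 90.6 TPM. All 9 genes of the 43S complex, recycling and re-initiation were detected, with a median of -0.14 and none past 2-fold. They were led by Bzw2 at 39.2 and 46.6 TPM, Abcf1 at 28.5 and 26.9 TPM and Abce1, the ribosome recycling factor, at 20.4 and 18.7 TPM. The 5 genes of the phosphatase that reverses eIF2 alpha phosphorylation had a median of -0.01 and none past 2-fold, led by the catalytic subunits Ppp1cb (195 and 174 TPM), Ppp1ca (77.1 and 71.9 TPM) and Ppp1cc (59.4 and 55.6 TPM). The mitochondrial factors Mtif2, with 11.1 and 11.5 TPM, and Mtif3, with 8.80 and 9.28 TPM, were close to Eif2d in level.

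The targets of ATF4, the transcription factor made when eIF2 alpha is phosphorylated, held members past 2-fold in both directions. Of 17 listed genes, 9 reached 1 TPM in both animals and 12 had counts high enough to compare, with a median log2 ratio of 0.07. Of the 12, 3 were 2-fold or more higher in animal 1 and 1 in animal 2, where 2.18% and 0.791% of all genes were. The highest were Ddit4 at 71.96 and 65.77 TPM, Cebpb at 53.3 and 65.0 TPM and Atf4 itself at 56.6 and 52.2 TPM. Higher in animal 1 were Asns, asparagine synthetase, with 2.21 TPM in animal 1 against 0.62 TPM in animal 2 (log2 ratio 1.71), Phgdh, an enzyme of serine synthesis, with 2.29 and 0.67 TPM (1.65), and Sesn2, an inhibitor of mTORC1, with 1.16 and 0.52 TPM (1.04). Chac1, which degrades glutathione, was higher in animal 2, with 4.49 TPM in animal 1 against 10.8 TPM in animal 2 (-1.38). Mean counts were 102.5 reads for Asns, 101.5 for Phgdh and 108.5 for Sesn2, near the minimum for this comparison, and 462 for Chac1. In that order, exact binomial 95% intervals were 1.25 to 2.23, 1.19 to 2.17, 0.63 to 1.48 and -1.59 to -1.17. At a minimum mean count of 10 reads, 901 of 15696 genes were 2-fold or more higher in animal 1, against 237 of 10872. The share at counts like these was not computed. Of the 12, 8 were higher in animal 1 and 4 in animal 2, and Chac1 alone was past 2-fold toward animal 2. Psat1, with too few reads to compare, had 1.08 TPM in animal 1 against 0.28 TPM in animal 2 (1.71). It was named after its value was seen. Tissue markers also differed between the animals, and their part in these genes was not tested. Fgf21 had 0 reads in both animals.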

How the data were processed

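Total RNA of gastrocnemius was sequenced in 2 libraries with ERCC spike-ins, made with reduced ribosomal RNA and a Norgen kit, per the labels. Expected counts and TPM per gene and, in a first transcript table, per transcript were deposited by the authors from a transcriptome alignment to mm10 with GENCODE M21, per the file headers and file lists. They also give the percent of a gene's TPM per transcript, and, as a score, the posterior SD of each count, per the file headers. Estimated counts and TPM in the second table were made directly from reads, per the deposited file lists. The names of the authors' tools were not given in the sources used here. CAST alleles counted on mm10, a B6 genome, may lose reads.

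TPM was compared with a pseudocount of 0.1. Scaling by edgeR's TMM factors used rounded expected counts, and log2 ratios used a prior count of 0.5 and genes averaging 100 reads or more. Intervals and floors of 3 counts cover counting error only. The ratio procedure was tested on simulated data. The alternatives were DESeq2 factors, library size, spike-in scaling, other filters, priors and pseudocounts, the second table and each library left out. Members and lists were chosen with earlier results of these data known. Every member is named, with both animals' values for pairs, the highest and lowest of each role, and the 3 furthest apart between animals in each direction. Leading transcripts are named for the 8 highest genes, for pair members with a lead that is not protein_coding or differs between tables, and for the 3 with the largest posterior SD. Of each list the 3 highest and those past 2-fold are named. Software was Biopython 1.88, scipy 1.17.1, pandas 2.3.3, numpy 2.4.6, matplotlib 3.10.9 and Python 3.11.15, with edgeR 4.0.16 and DESeq2 1.42.0 in R 4.3.3.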

Additional observations from a re-analysis of the deposited data

How the results depend on the processing

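The number of genes at 1 TPM or more in both animals (50; 50 to 51 with either library left out), the 13 pairs apart, the 0 genes past 2-fold in either direction and the 47 genes led by a protein_coding transcript (47 with either library left out) stayed within 1.5 times their value under each alternative run. The summed level, 0.26% of all gene TPM, was 0.574% of the TPM of genes with a protein_coding transcript, 0.421% in the second table and 0.427% of expected counts, and 0.255% to 0.265% with either library left out. The median ratio of animal 1 over animal 2 was 0.0595 with library size alone and -0.249 with spike-in scaling, shifts that all genes had in common. The count of genes 2-fold apart between tables was 5 without centring, 1 at 5 TPM or more, and 0 to 3 with either library left out. Eif5, at 0.11, turned to -0.0911 with spike-in scaling. The cause was not tested. The ratio between animals needs both libraries and has no value with either left out, and without a library the pairs have values but no SD. No paired analysis was possible because the 2 libraries form 1 group. Depth limits Eif4e1b, Eif5a2 and Eif4ebp3. With 2 libraries the SDs themselves are rough, and levels of RNA say nothing of protein or phosphorylation.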

Other observations

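Below the count needed for the comparison between animals, Eif5a2 had a log2 ratio of animal 1 over animal 2 of 0.67 (exact binomial 95% interval 0.09 to 1.28) and Eif4ebp3 of 0.47 (-0.32 to 1.26). Next to the 3 genes furthest toward animal 1 stood Eif2ak4 at 0.25 (0.00 to 0.50) and Eif4e3 at 0.21 (0.07 to 0.35), and with spike-in scaling Eif4e3 was at 0.01. Among ATF4 targets under 2-fold, Atf3 had 5.11 TPM in animal 1 against 2.58 TPM in animal 2 (0.88) and Slc3a2, the heavy chain of amino acid exchangers, had 18.9 and 12.6 TPM (0.52). These genes were chosen after their values were seen.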
